A study of Sus scrofa with 24 samples.

Results

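The 232 genes described here are pig genes whose symbol is ZNF followed by a number alone and that had at least 240 read counts summed over the 24 libraries, out of 20674 genes in the deposited table. Their RNA was sequenced from 2 gut segments, ileum and colon, of female pigs. Per the labels the sows were at gestation day 114 and had been fed from breeding on. The reference diet, LF, contained 3.73% crude fibre and no additive, and LN was LF plus 0.05% N-carbamylglutamate (NCG). HF contained 7.46% crude fibre and no additive, and HN was HF plus 0.05% NCG. NCG is a stable analogue of N-acetylglutamate, the compound that switches on the first enzyme of the urea cycle and of intestinal citrulline and arginine synthesis. A diet was given to 100 sows, and 3 libraries were made per diet in each tissue, which gives 8 groups. Whether the libraries of 1 group are different sows is not labelled, so p-values measure the spread between libraries as labelled.

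Most ZNF genes encode proteins built from chains of classical zinc fingers, short folds in which cysteine and histidine residues hold a zinc ion and neighbouring residues read the bases of DNA or, in some proteins, RNA. Many also carry a KRAB domain, which recruits the scaffold TRIM28 and with it the histone methyltransferase SETDB1 and heterochromatin proteins, and KRAB zinc finger proteins are best known for silencing transposable elements. KRAB zinc finger genes arose by repeated duplication and lie in clusters. A smaller number of ZNF proteins are conserved promoter factors, subunits of corepressor complexes, or proteins of ribosome assembly and RNA processing. Human and mouse work supplies most of these roles, and in the gut they are known for few members.

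The rule used the counts themselves, so the levels are given as a description. Of 240 rows with such a symbol 8 fell below the limit. The members nearest to it were ZNF510 with 242 counts, ZNF750 with 247 and ZNF500 with 255. Just outside lay ZNF541 with 211, ZNF594 with 173 and ZNF883 with 155, and ZNF23 was at 0. Another 82 genes described as zinc finger proteins are named by locus number, and 16 carry a letter after the ZNF number; these were not members. Reads of close ZNF copies can be split or dropped in counting, and how the authors treated such reads is not given in the sources used here.

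Library totals ran from 11951729 to 19896941 counts, and the members together took 0.364% to 0.631% of them. A member had a median of 198 counts per library, with values from 0 to 7260. As a check of the tissues, the summed level of 7 ileal enterocyte markers was 825 to 10087 CPM (counts per unit of TMM-normalised library size) in the ileum and 1.64 to 149 in the colon. FABP6, the ileal bile acid binding protein, passed 500 CPM in ileum HN 2, HF 2 and LF 1 and was at most 37.3 CPM in the other 9 ileum libraries, with LF 3 at 0. SLC10A2, another of the 7 markers, had 24.5, 290 and 218 CPM in those 3 libraries. It was at most 0.753 CPM in the other 9 and reached 26.6 in the colon. In those 9 the sum thus came mostly from the other markers of the list. Of 6 colonic epithelium markers 5 were in the table, and their sum overlapped between the tissues. Smooth muscle markers (8 genes) summed to 897 to 39423 CPM in the ileum and to 1209 to 92982 in the colon, where 4 libraries (HN 1, LN 1, LF 1 and LF 2) passed 50000. Adipocyte markers (5 genes) reached 3668 CPM in ileum LN 3 and at most 55.7 in the other ileum libraries.

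ZNF transcripts were sparse. Their median level was 2.81 CPM per kilobase of the deposited gene length (quartiles 1.31 and 4.67), against 6.57 for all 14833 genes with at least 240 counts. Gene lengths had a median of 4660 bases against 3751 for those genes. The longest were ZNF462 (26827 bases), ZNF536 (17767) and ZNF469 (15898), and the shortest ZNF32 (1224), ZNF389 (1452) and ZNF296 (1567). All 232 are listed as protein coding, and 207 carry the deposited annotation for nucleic acid binding, 106 for metal ion binding and 57 for DNA-binding transcription factor activity. Chromosome 6 held 74 of them, chromosome 3 held 31 and chromosome 14 held 18.

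The highest level per kilobase belonged to ZNF664 (chromosome 14, 29031603 to 29068922), at 46.9 CPM per kb over all libraries. It was followed by ZNF706 with 32.7, ZNF330, a nucleolar protein, with 23, ZNF384 with 18.5 and ZNF207, a BUB3 partner that acts at kinetochores, with 18.2. Next came ZNF22 with 17.0, ZNF622, a maturation factor of the large ribosomal subunit, with 14.9, and ZNF703, a corepressor partner, also with 14.9. ZNF664 stood above the rest in the colon in particular, with 58.5 CPM per kb there and 35.3 in the ileum. ZNF330 spanned 44 to 65.2 CPM in the ileum and 45.4 to 70.6 in the colon, so neither tissue stood apart for it. Neighbours in this order, such as ZNF384 and ZNF207, or ZNF622 and ZNF703, do not differ beyond the spread over libraries.

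In the ileum 44 of 229 tested ZNF genes were higher with NCG, averaged over both fibre levels, and none were lower (edgeR quasi-likelihood test, Benjamini-Hochberg adjusted p under 0.05). That is 19.2% of the members, where 5.85% of all 15103 genes tested were called, 5.42% higher and 0.430% lower. ZNF500, ZNF750 and ZNF488 were not tested because their ileum counts were too low. The 44 changes ran from 0.63 to 2.31 on the log2 scale with a median of 1.25. Over all 229 tested members the median was 0.11, against -0.07 over all genes, and the members had quartiles of -0.17 and 0.71. At an unadjusted p under 0.05 there were 79 members (21.5% of all genes). For 43 members all 6 NCG libraries lay above all 6 others (4.40% of all genes), and for 5 all lay below (1.77% of all genes). The labels name no batch or RNA quality measure, and in bulk tissue fewer cells of a type and less RNA per cell cannot be told apart.

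ZNF146, also called OZF, is a small protein made almost wholly of zinc fingers. It measured 12.6, 12.5 and 9.83 CPM in the LF libraries, 46.3, 30.5 and 57.4 with LN, 18.8, 19.0 and 15.9 with HF, and 38.0, 39.3 and 37.7 with HN. All 6 NCG libraries were higher than the other 6, and LF was lower than HF. The average change with NCG was 1.53 ± 0.16 (log2, ± SE; adjusted p = 0.00203). ZNF146 lies on chromosome 6 at 45520885 to 45603213 of Sscrofa11.1 and overlaps ZNF565 on the other strand, which was also called, at 0.73. Strandedness of the counting is not given, so reads of these 2 genes may not be told apart. Among all members 52 overlap another gene of the deposited table, 8 of them called higher with NCG in the ileum. The same limit applies to these, and to ZNF664, ZNF410, ZNF263 and ZNF488 among the genes named for the tissues.

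ZNF24, a SCAN-domain protein known as a repressor of VEGF transcription, was the most abundant of the 10 genes with the smallest p. It had 40.7, 40.4 and 46.3 CPM with LF, 106, 92.8 and 131 with LN, 48.7, 58.0 and 47.6 with HF, and 103, 115 and 84.6 with HN. The lowest NCG library exceeded the highest of the others. The change was 1.18 ± 0.13 (adjusted p = 0.00203). The gene lies on chromosome 6 at 119156507 to 119167240.

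ZNF644 works with WIZ in the complexes of the histone methyltransferases EHMT1 and EHMT2. It measured 14.8, 15.9 and 15.4 CPM with LF and 40.5, 33.6 and 59.8 with LN, then 16.2, 19.9 and 19.9 with HF and 36.8, 47.5 and 34.8 with HN. The 6 libraries without NCG were close to each other, and LN 3 was the highest. Its change was 1.32 ± 0.16 (adjusted p = 0.00236).

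ZNF638 binds RNA and DNA and recruits the HUSH silencing complex to unintegrated retroviral DNA. With LF it had 11.3, 7.66 and 7.36 CPM, with LN 38.8, 24.2 and 75.3, with HF 10.9, 13.9 and 10.8, and with HN 24.7, 47.9 and 35.0. The NCG libraries were again all higher, with LN 3 above the rest, and the change was 2.0 ± 0.29 (adjusted p = 0.00336). ZNF148, a factor of GC-rich promoters studied in gut epithelium, had 18.3, 16.2 and 18.6 CPM with LF, 41.7, 41.2 and 77.0 with LN, 16.8, 23.6 and 19.2 with HF, and 45.9, 62.4 and 38.5 with HN. ZNF148 changed by 1.45 ± 0.20 (adjusted p = 0.00303), and its 6 libraries with NCG did not overlap the others.

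ZNF197, which has a SCAN and a KRAB domain, rose by 1.80 ± 0.24, from 4.81 to 14.8 CPM in the libraries without NCG to 21.8 to 45.0 with it (adjusted p = 0.00291). The KRAB genes ZNF181, ZNF667 and ZNF184 rose by 1.5, 1.07 and 1.22, and ZNF770 by 1.45, with adjusted p between 0.00291 and 0.00379. ZNF667 had narrow NCG groups, at 11.9 to 12.9 CPM with HN and 10.2 to 13.5 with LN, against 4.56 to 7.06 without NCG. These 10 genes kept the call in each alternative analysis that was run.

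**Figure D1:**
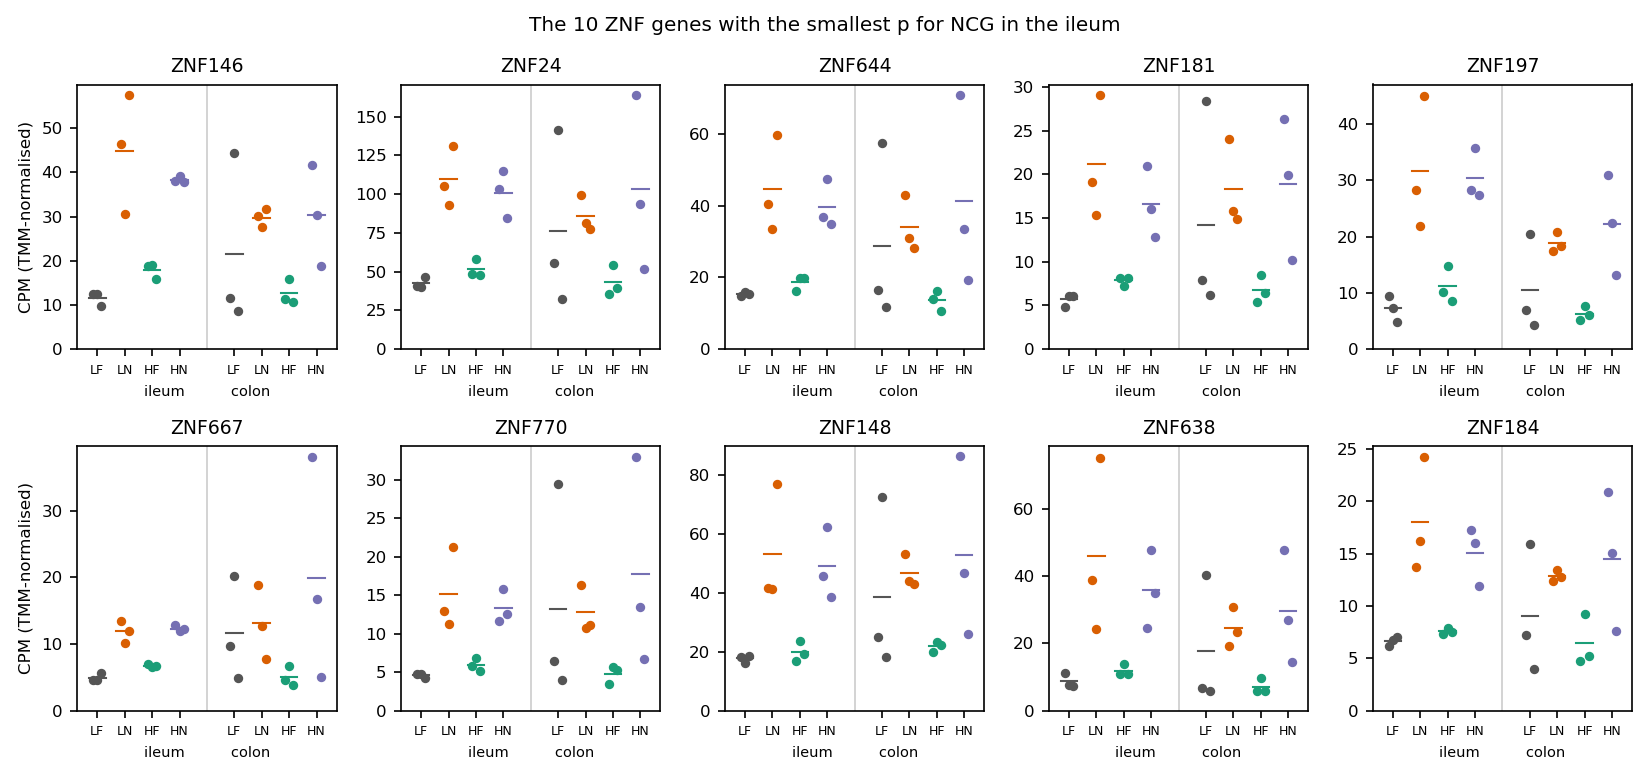
Level of the 10 ZNF genes with the smallest p for NCG in the ileum, 1 panel per gene, in TMM-normalised CPM for each library (points) of each diet and tissue, with the mean of 3 libraries as a bar. In the ileum all 6 points of LN and HN lie above all 6 of LF and HF in each panel; in the colon 1 LF library reaches the level of the NCG libraries and the HN points are spread widely.

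The largest changes belonged to other members. ZNF567, a KRAB gene, changed by 2.31 (adjusted p = 0.00665). Its levels were 2.22, 2.24 and 2.11 CPM with LF, 8.84, 7.60 and 38.1 with LN, 1.85, 2.43 and 3.11 with HF, and 7.91, 7.22 and 6.66 with HN. LN 3, the library with high adipocyte markers, was far above the other 5 NCG libraries, which still lay above all those without NCG. ZNF711, on chromosome X at 68475512 to 68499329, is a relative of ZFX that acts with the demethylase PHF8, and it changed by 2.05 (adjusted p = 0.00387). It had 2.04, 2.32 and 1.53 CPM with LF, 15.8, 8.48 and 24.6 with LN, 4.09, 4.10 and 4.52 with HF, and 10.2, 4.71 and 11 with HN. The lowest NCG value of ZNF711, in HN 2, barely exceeded the highest without NCG.

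Other called members with known roles were ZNF800, which holds back enteroendocrine cell fate, ZNF260, a cardiac regulator, ZNF131, a BTB-domain protein, and ZNF277, which binds a small-subunit ribosomal protein. ZNF800 had a median of 29.9 CPM with NCG and 15.2 without, and changed by 1.11. ZNF260 had medians of 12 and 2.94 CPM and changed by 1.83. ZNF277 ranged from 39.9 to 119 CPM with NCG and from 21.4 to 29.7 without, a change of 1.24. ZNF131 changed by 0.73, from a median of 17.9 to 31.3 CPM.

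Another 27 genes were called. ZNF654, ZNF292, ZNF570, ZNF529, ZNF25, ZNF432 and ZNF182 changed by 1.41 to 1.90. ZNF292 was among the longest of the called genes, at 15760 bases, and had 20.7 to 57.6 CPM with NCG and 4.88 to 17.8 without. Changes of 1.06 to 1.38 were measured for ZNF41, ZNF568, ZNF674, ZNF615, ZNF658, ZNF248, ZNF583, ZNF605, ZNF300, ZNF624, ZNF12 and ZNF558. ZNF331, ZNF84, ZNF180, ZNF397, ZNF891, ZNF189, ZNF507 and ZNF283 had the smallest, 0.63 to 1.02. ZNF182, ZNF41 and ZNF674 lie on chromosome X like ZNF711.

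The 185 members without a call ran from -0.69 for ZNF275 to 1.54 for ZNF484. ZNF484 had 5.99 to 18.0 CPM with NCG and 1.86 to 7.15 without, so its groups overlapped, and its adjusted p was 0.0581. ZNF510, the member nearest the count limit, changed by 1.44 (adjusted p = 0.121) at levels of 0.139 to 1.68 CPM. None of the members passed the test in the lower direction. The 3 with the smallest p there were ZNF710 (-0.50, adjusted p = 0.106), ZNF623 (-0.44, adjusted p = 0.108) and ZNF511 (-0.46, adjusted p = 0.116). ZNF623 had 15.1 to 28.6 CPM with NCG and 31.3 to 34.8 without, so its libraries did not overlap even though it missed the threshold. The other 4 members lower in all NCG libraries were ZNF282, ZNF574, ZNF764 and ZNF777.

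Members can also be read by role. Of all tested members 19.2% were called higher, and of all genes 5.42%. The role lists are small, so their counts are not read as differences between roles. Of 3 members in ribosome assembly or translation control, none was called: ZNF598, the sensor of collided ribosomes, changed by -0.28, ZNF593 by -0.36 and ZNF622 by -0.18. Of 7 promoter factors and activators 1 was called, ZNF148, and ZNF281 (0.13), ZNF335 (-0.11) and ZNF384 (-0.09) were not. Of 11 members of corepressor and chromatin complexes ZNF644 and ZNF638 were called, while ZNF777 (-0.35) and ZNF687 (-0.18) were not. Of 11 tested lineage regulators none was called, with ZNF683, the tissue-resident lymphocyte factor Hobit, at 0.59 (adjusted p = 0.529) and ZNF521 at 0.39. Of 5 RNA-binding members ZNF638 alone was called, and ZNF207 (0.28) and ZNF106 (0.38) were not.

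Within the ileum libraries most of the 44 called genes moved together. Their median distance from each gene's mean over the 12 ileum libraries was -0.74, -0.83 and -0.80 (log2) in LF, 0.52, 0.36 and 1.24 in LN, -0.52, -0.29 and -0.51 in HF, and 0.52, 0.73 and 0.40 in HN. All 44 were above their mean in the 3 LN libraries and in HN 1, and none was in the 3 LF libraries. In HN 2 and HN 3 it was 41 and 40 of them, and in HF 1, HF 2 and HF 3 it was 1, 8 and 2. For the other 185 members the same medians stayed between -0.08 and 0.09. The 775 genes outside the family called higher had similar medians: -0.62, -0.78 and -0.78 in LF, 0.57, 0.34 and 1.06 in LN, -0.44, -0.27 and -0.38 in HF, and 0.48, 0.63 and 0.20 in HN. Because the 44 were chosen on these libraries, this describes how evenly they moved and tests nothing.

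**Figure D2:**
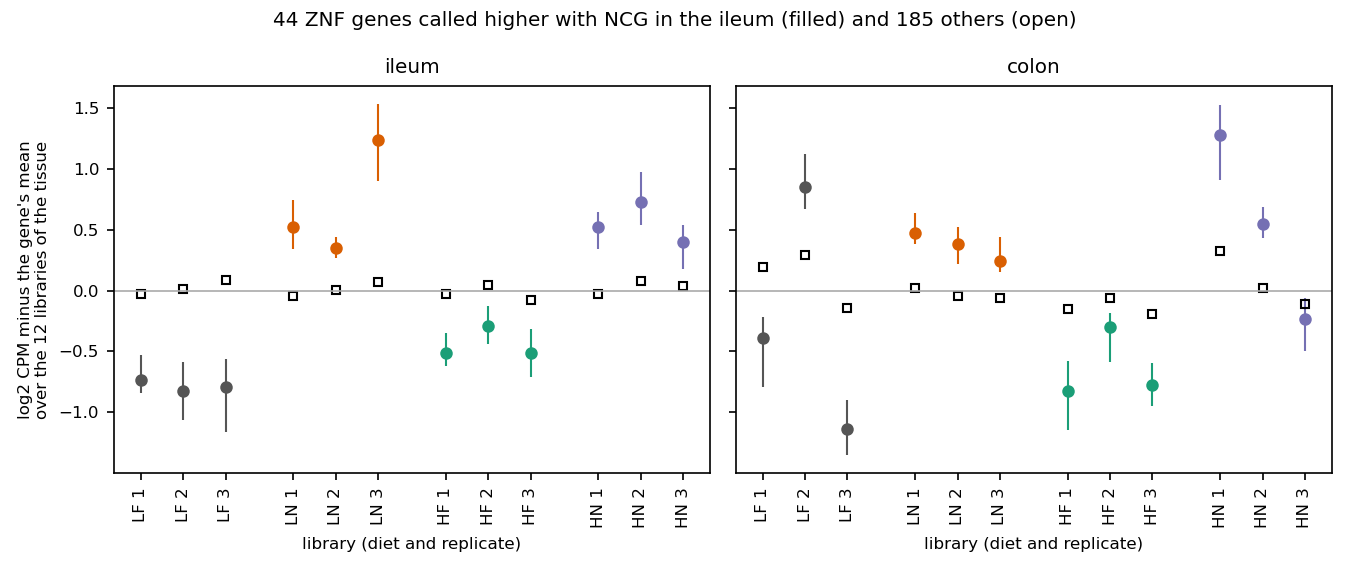
Median over ZNF genes of log2 CPM minus each gene's mean over the 12 libraries of the tissue, for every library by diet and replicate. Filled points with bars show the median and quartiles of the 44 genes called higher with NCG in the ileum and open squares the median of the other 185; in the ileum the filled points run from -0.83 to -0.29 without NCG and from 0.36 to 1.24 with it, while in the colon LF 2 is high at 0.85 and HN 3 low at -0.23.

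Markers of other cell types were read beside these calls, and none of them passed the test. Smooth muscle markers summed to 897 to 8329 CPM with NCG and 1263 to 39423 without. All 8 of them had negative changes (median -0.75), and their sums overlapped. B cell markers (5 genes, median -0.71) summed to 4.47 to 907 CPM with NCG and 67.3 to 449 without. Adipocyte markers summed to 18.9 to 3668 CPM with NCG and 16.1 to 40.1 without. The 4 of them tested had positive changes, ADIPOQ 5.13 (adjusted p = 0.115), PLIN1 4.36 (0.106), FABP4 3.37 (0.126) and CIDEC 1.03 (0.347), and LN 3, their highest library, was also the highest in the 44 ZNF genes. The mitochondrial share of counts was 5.06% to 7.96% with NCG and 5.90% to 8.09% without. Apart from leaving out libraries, the part of these in the ZNF result was not tested. Without HN 2, HF 2 and LF 1, the libraries with high FABP6, 27 members were called, 26 of them among the 44, and all 27 were higher. Without LN 3 the count was 34, and the shares of all genes called in these fits are not given here.

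The change with NCG also varied with gene length. Among the longest members (7184 to 26827 bases) 12 of 57 were called higher, or 21.1%, where 13.5% of the other genes of that length were called in either direction. In the shortest (1224 to 3193 bases) 6 of 57 members were called, or 10.5%, against 2.05% of other genes. Between 4687 and 7052 bases 14 of 58 members were called (24.1% against 8.22%), and between 3199 and 4633 bases 12 of 57 (21.1% against 3.51%). The median change of members in the longest class was 0.19, against 0.16 for other genes, between 4687 and 7052 bases 0.29 against 0.01, between 3199 and 4633 bases -0.09 against -0.06, and in the shortest class -0.03 against -0.18. With the trend over gene length removed from the counts, 44 members were again called, 42 higher and 2 lower, and 41 of them were among the 44 of the first analysis. For that fit the share of all genes called is not given here.

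**Figure D3:**
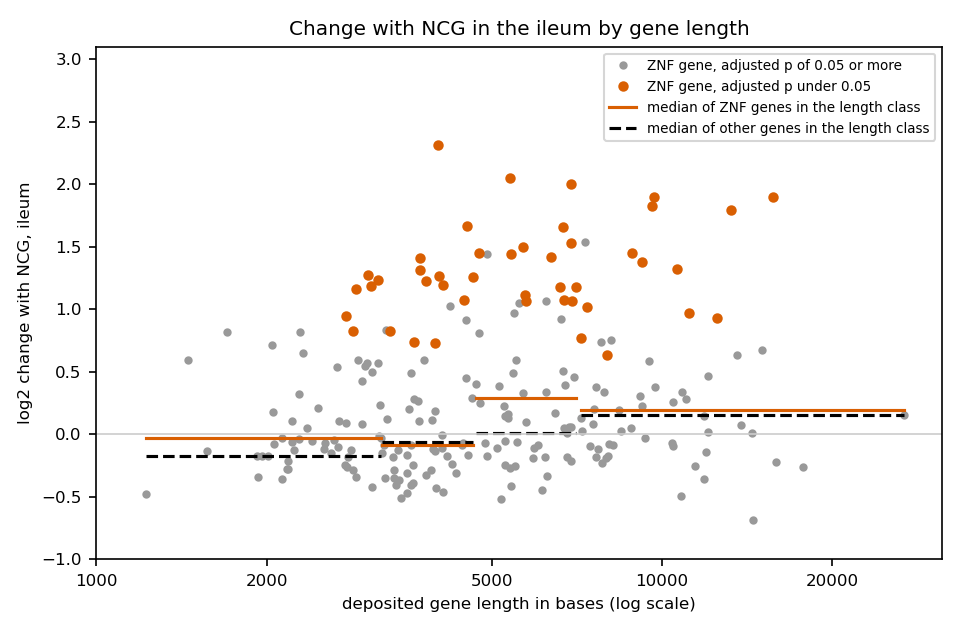
Average log2 change with NCG in the ileum of 229 ZNF genes against the deposited gene length in bases (log axis); orange points have an adjusted p under 0.05, grey points do not. Orange lines mark the median of ZNF genes and dashed black lines that of all other genes in 4 length classes; the called genes lie between 0.63 and 2.31 and occur in all 4 classes, and the dashed lines climb from -0.18 to 0.16 with length.

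By position, 18 of 74 tested members on chromosome 6 were called higher, or 24.3%, where 3.47% of the other genes tested there were. On chromosome 14 it was 5 of 17 members (29.4%, other genes 4.38%), on chromosome 3, 2 of 30 (6.67%, other genes 3.37%), and elsewhere 19 of 108 (17.6%, other genes 5.69%). With neighbours grouped where they lay within 500 kb of each other, the largest cluster held 12 members on chromosome 6 at 45520885 to 46468679 (Sscrofa11.1). All 12 changes there were positive, from 0.50 to 2.31 with a median of 1.12, and 7 were called: ZNF146, ZNF565, ZNF567, ZNF529, ZNF260, ZNF568 and ZNF570. Of the 6 other genes tested in this stretch 4 were higher as well. A cluster of 5 on chromosome 14 at 22477507 to 22638290 had 3 called members, ZNF891, ZNF84 and ZNF605. None of 10 members on chromosome 3 at 16957875 to 17925593 was called (median -0.23), nor any of 8 on chromosome 18 at 55495145 to 55954153 (median -0.21). Chromosome 6 also had clusters with no call, 10 members at 61740677 to 63066130 (median 0.18), where 5 of 25 other genes were higher, and 6 members at 59619677 to 59767421 (median -0.19). In that stretch of chromosome 3 none of the 33 other genes tested was called. Neighbouring copies can share reads, so calls within a cluster are not independent of each other.

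The effect of NCG on each fibre level was then taken apart. On the low-fibre diet (LN against LF) 34 of 229 members were higher and none lower (4.34% of all genes called, 4.24% higher and 0.106% lower). ZNF711 had the largest change among the 10 smallest p, 3.06 ± 0.45, followed by ZNF638 with 2.41 ± 0.41 and ZNF197 with 2.14 ± 0.35. ZNF146 changed by 1.95 ± 0.23 (adjusted p = 0.00403) and ZNF24 by 1.38 ± 0.19 (adjusted p = 0.00619). ZNF644, ZNF181, ZNF667, ZNF770 and ZNF248, a KRAB gene, completed these 10 with changes of 1.28 to 1.91. The count fell to 5 without LF 2, 12 without LF 3, 19 without LN 3 and 20 without LF 1, and to 18 without the libraries high in FABP6. Shares of all genes called in those fits are not given here. Without LF 2 the calls of ZNF197, ZNF667, ZNF770, ZNF638 and ZNF248 ended.

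On the high-fibre diet (HN against HF) no member passed the threshold, and neither did any of the 15103 genes. At an unadjusted p under 0.05 there were 41 members (8.07% of all genes). DESeq2 called 17 members, and the share of all genes that it called is not given here. ZNF24 had the smallest p, with 0.98 ± 0.19 (adjusted p = 0.322), then ZNF146 with 1.11 ± 0.23 and ZNF644 with 1.10 ± 0.23. The median over members was 0.18, against -0.04 over all genes. All 44 genes called on the average had positive changes on both fibre levels, from 0.45 to 1.61 (median 0.97) with high fibre and from 0.71 to 3.06 (median 1.53) with low fibre. For each of the 44 the low-fibre change was the larger. The difference itself passed in no member: the interaction gave 0 calls, 8 members at an unadjusted p under 0.05 (4.45% of all genes) and 0 by DESeq2. ZNF711 had the smallest p for it, at -2.03 ± 0.60 (adjusted p = 0.872), and ZNF146 had -0.85 ± 0.32.

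With both additions against neither (HN against LF) 17 members were higher and none lower (1.88% of all genes called, 1.87% higher and 0.00662% lower). The smallest p were those of ZNF146 (1.73 ± 0.23, adjusted p = 0.0204), ZNF24 (1.26 ± 0.19) and ZNF667 (1.33 ± 0.21). ZNF197 (2.08 ± 0.35) and ZNF605 (1.57 ± 0.27) were among the first 10, which also held ZNF644, ZNF181, ZNF770, ZNF800 and ZNF148. This count rested on few libraries. It was 0 without any of HN 1, HN 2, LF 1, LF 2 and LF 3, 0 without the libraries high in FABP6, and 29 without LN 3. It was 5, 6, 10 and 11 without HF 3, HF 1, LN 1 and HF 2, and shares of all genes called are not given for these fits. The change of ZNF146 stayed between 1.54 and 1.80 over all alternatives. LN against LF and HN against LF share the LF libraries.

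No ZNF gene passed the test for fibre. In the ileum the average effect of fibre gave 0 calls among members and 0 among all genes, 3 members at an unadjusted p under 0.05 (5.26% of all genes), and 0 by DESeq2. The smallest p were those of ZNF365 (-1.52 ± 0.63, adjusted p = 0.802), ZNF768 (-0.49) and ZNF219, a partner of SOX9 (-0.63). ZNF365 measured 11.7 CPM in LF 3 and 7.77 in LN 3 but at most 3.1 in the other 10 ileum libraries, and LF 3 was also the ileum library with the most smooth muscle RNA. The median over members was 0.01, against -0.02 over all genes. In the colon fibre gave 0 calls, 3 members at an unadjusted p under 0.05 (4.59% of all genes) and 0 by DESeq2. ZNF219 (-0.76 ± 0.28, adjusted p = 0.835) and ZNF317 (-0.33) had the smallest p there. The colon median was -0.10, against 0.00 over all genes, with 75 of 232 members (32.3%) positive where 50.1% of all genes were.

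The partners through which KRAB proteins act, and other zinc finger families, were read beside the members in the ileum. Of 22 genes of the TRIM28 heterochromatin machinery 4 rose with NCG and none fell, with a list median of -0.17. They were MORC3, an ATPase of nuclear bodies (1.70, adjusted p = 0.00374), SMARCAD1, a remodeller that binds TRIM28 (1.38, adjusted p = 0.00513), ATRX, a remodeller that deposits histone variants at repeats (1.5, adjusted p = 0.00528), and CBX3, a heterochromatin protein (0.68, adjusted p = 0.0378). ATRX had 14, 13.1 and 14.6 CPM with LF and 37.3, 25.6 and 73.0 with LN, so its groups did not overlap. TRIM28 itself lay at 143, 164 and 157 CPM with LF and at 143, 122 and 68.6 with LN. It had 166, 152 and 154 CPM with HF and 124, 122 and 144 with HN, all 3 HN values below those of HF. TRIM28 did not pass the test.

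Of 4 HUSH genes FAM208A (also called TASOR) rose by 1.89 (adjusted p = 0.00318), and MPHOSPH8, MORC2 and PPHLN1 did not pass. Of 18 SP and KLF factors SP3 was called (0.63, adjusted p = 0.0388), and of 27 architectural and developmental zinc finger factors ZFX (1.34, adjusted p = 0.00236). ZBTB genes had 9 of 41 higher, ZFP genes 2 of 10, ZNF genes with a letter after the number 5 of 13, and ZSCAN and ZKSCAN genes 0 of 15. These counts stand beside 5.42% of all genes called higher. No gene of these lists fell. In the colon no gene of these lists was called with NCG.

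In the colon no ZNF gene passed the threshold for NCG, averaged over fibre, and neither did any of 15075 genes. At an unadjusted p under 0.05 there were 34 members (12.4% of all genes), and DESeq2 called 6. Without LF 2 edgeR called 14, all higher. The shares of all genes called in these alternatives are not given here. The median change over the 232 members was 0.16, against 0.06 over all genes, and 174 members were positive, where 56.7% of all genes were. ZNF711 had the smallest p, with 1.82 ± 0.38 (adjusted p = 0.196), then ZNF81 with 0.82 and ZNF197 with 1.38. ZNF711 had 1.65, 3.14 and 1.74 CPM with LF, 6.79, 10.9 and 14.2 with LN, 4.33, 4.42 and 2.98 with HF, and 3.86, 16 and 7.51 with HN. Apart from HN 1, each NCG library of ZNF711 was above all those without NCG. The member with full separation in the colon was ZNF207, at 209 to 228 CPM with NCG and 165 to 192 without, 1 of 232 (0.425% of all genes).

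The 44 genes called in the ileum can be followed in the colon, whose libraries had no part in choosing them. All 44 had a positive change with NCG, from 0.41 to 1.82 with a median of 0.92, and 28 had an unadjusted p under 0.05. Of all genes tested in both tissues 56.3% were positive and 12.5% had such a p. Over all genes tested in the colon 51.6% were positive for HN against HF and 50% for LN against LF. With high fibre (HN against HF) all 44 were positive in the colon, with a median of 1.32, and with low fibre (LN against LF) 40 were, with a median of 0.42. The other 4, ZNF25 (-0.27), ZNF397 (-0.11), ZNF568 and ZNF770 (both near 0), did not pass the test. In the ileum the low-fibre change had been the larger in all 44, and in neither tissue did the interaction of fibre and NCG pass the test in any member. Among the other 185 members 129 were positive, with a median of 0.11 and 6 at that p. This was shared with genes outside the family: of the other genes called higher in the ileum, 767 of 770 tested were positive in the colon, with a median of 0.77 and 453 at an unadjusted p under 0.05. Whether colon and ileum libraries came from the same sows is not labelled.

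**Figure D4:**
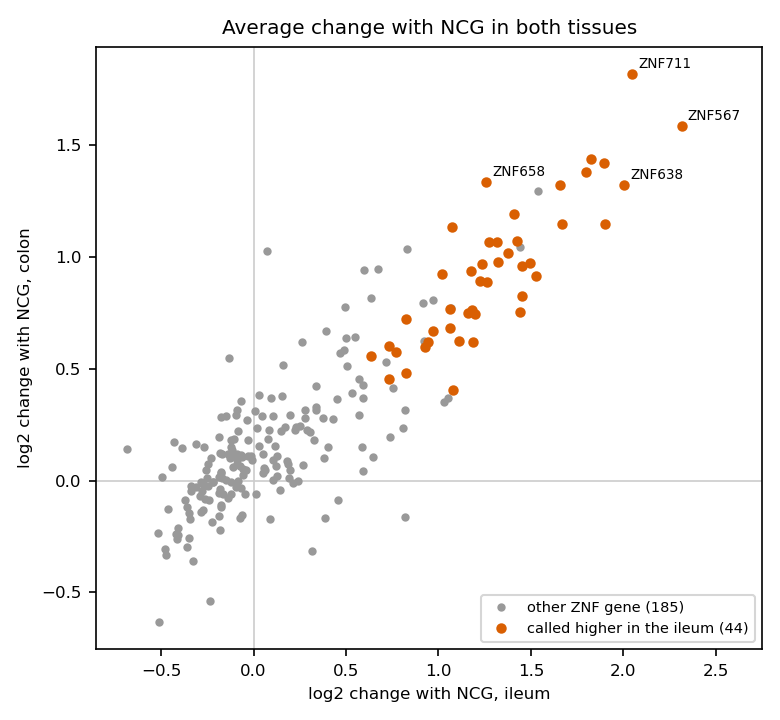
Average log2 change with NCG in the ileum (horizontal axis) and in the colon (vertical axis) for the 229 ZNF genes tested in both, with the 44 called higher in the ileum in orange and the other 185 in grey. All orange points are above 0 in the colon, between 0.41 and 1.82, although none passed the adjusted test there.

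Library by library the colon was less even. The median distance of the 44 genes from their colon mean was -0.39, 0.85 and -1.13 in LF, 0.47, 0.39 and 0.25 in LN, -0.83, -0.30 and -0.78 in HF, and 1.28, 0.55 and -0.23 in HN. LF 2 was thus as high as the NCG libraries, and HN 3 lay with those without NCG. ZNF24 showed it in CPM, with 55.5, 141 and 32.6 in LF, 99.2, 81.5 and 77.6 in LN, 35.4, 54.5 and 39.7 in HF, and 164, 93.8 and 51.8 in HN. The 2 highest, HN 1 and LF 2, were also the libraries with the most smooth muscle marker RNA, 88553 and 92982 CPM. LF 1, with 73564 CPM of those markers, had 55.5 CPM of ZNF24, and LN 1, with 51382, had 99.2. The part of smooth muscle in these values was not tested. Leaving out the 4 colon libraries above 50000 CPM, which left 1 LF library, all 44 genes were positive with a median of 1.16, 43 had an unadjusted p under 0.05 (19.7% of all genes) and none passed the adjusted test.

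Within the colon, HN against HF gave 0 calls by edgeR and by DESeq2 and 49 members at an unadjusted p under 0.05 (12.7% of all genes), with a median of 0.45 against 0.02 over all genes. ZNF484 (1.97 ± 0.57) and ZNF197 (1.86 ± 0.54) had the smallest p, both with an adjusted p of 0.391. LN against LF gave 0 calls, 8 members at an unadjusted p under 0.05 (13.3% of all genes) and 3 by DESeq2, with a median of -0.01. HN against LF gave 0 calls, 10 members at that p (8.94% of all genes) and 1 by DESeq2, and ZNF711 had the smallest p in both, at 2.34 and 2.1. The interaction gave 0 calls, 24 members at that p (15.0% of all genes) and 0 by DESeq2. ZNF275 led it with 3.23 ± 0.99 (adjusted p = 0.327). That gene measured 39.9, 52.4 and 18.8 CPM with LF, 20.3, 12.7 and 5.41 with LN, 5.91, 5.91 and 6.77 with HF, and 43.9, 10.3 and 6.94 with HN. Its high libraries were again those rich in smooth muscle markers.

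The difference of the NCG effect between colon and ileum passed in no member. There were 2 members at an unadjusted p under 0.05 (2.99% of all genes) and 0 calls by DESeq2. The smallest p were those of ZNF623 (0.46 ± 0.18) and ZNF710 (0.47 ± 0.20), each with an adjusted p of 1.0. A missed threshold does not show that the effect was equal in the 2 tissues.

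Between the tissues 27 of 232 members differed, 9 higher and 18 lower in the colon, where 28.4% of all 15675 genes differed (12.5% higher, 15.9% lower). That is 11.6% of the members, and their median difference was -0.01, against -0.03 over all genes. With other size factors (RLE) the split was 13 higher and 15 lower, without a filter on low counts 10 and 15, and with DESeq2 21 and 20. Without the 4 colon libraries rich in smooth muscle it was 5 and 25, and 14 of the 27 calls were shared. Shares of all genes called in these alternatives are not given here, so the splits are not read as particular to ZNF genes. ZNF300 was the member called both between the tissues and for NCG in the ileum. For no member did all 12 colon libraries lie apart from all 12 ileum libraries (0.434% of all genes higher, 0.925% lower).

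ZNF536, a repressor of neuronal differentiation on chromosome 6 at 40291360 to 40773616, differed most among those higher in the colon, by 2.11 ± 0.33 (adjusted p = 1.14e-04). Its levels had a lowest, median and highest value of 1.49, 3.92 and 6.35 CPM in the ileum and 4.17, 16.8 and 38.3 in the colon. The colon's low values, 4.17 in LF 2 and 4.27 in HN 1, came from the libraries with the most smooth muscle RNA. ZNF664 ranged from 127 to 226 CPM in the ileum and from 217 to 405 in the colon, a difference of 0.70 ± 0.11 (adjusted p = 1.56e-04). ZNF774 (1.01), ZNF768 (0.50) and ZNF410 (0.29), an activator of CHD4, were also higher. ZNF410 had narrow ranges, 33.5 to 40.9 CPM in the ileum and 36.2 to 59.8 in the colon. The call of ZNF768 ended without the muscle-rich libraries (0.40, adjusted p = 0.0651).

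ZNF462 (1.06), ZNF185, an actin cytoskeleton protein with a LIM domain (1.44), ZNF488 (1.72) and ZNF516, a brown fat regulator (0.38), made up the 9. ZNF488 had too few counts to be tested in the ileum and passed the filter of the model of both tissues only with the colon libraries included. ZNF185 had a lowest, median and highest value of 4.45, 6.58 and 32.8 CPM in the ileum and 4.24, 20.3 and 109 in the colon. Its 3 highest values, 109 in colon LF 2, 83.9 in HN 1 and 76.4 in LF 1, came from the 3 libraries with the most smooth muscle marker RNA. Without the 4 muscle-rich libraries these 4 calls ended, at 0.56 for ZNF462 (adjusted p = 0.206), 0.56 for ZNF185 (0.394 as adjusted p), 0.83 for ZNF488 (0.402) and 0.18 for ZNF516 (0.288). Those of ZNF488 and ZNF516 ended in 15 and 18 alternatives in all. Enteric neuron and glia markers (4 of 5 genes in the table) summed to 15.7 to 73.3 CPM in the colon and 6.78 to 30.2 in the ileum, and their part was not tested.

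**Figure D5:**
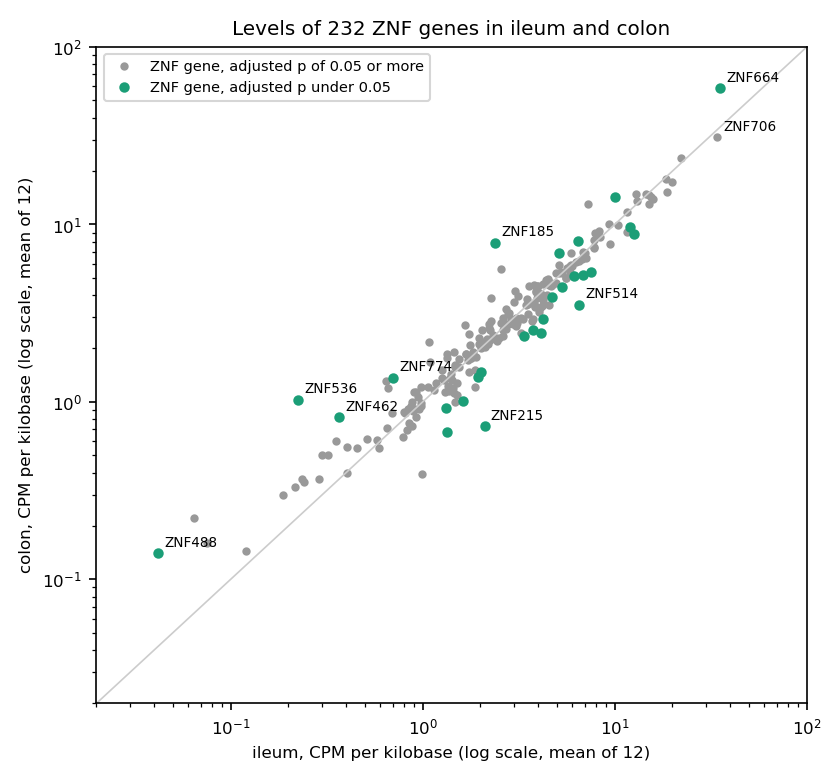
Mean level of each of the 232 ZNF genes in 12 ileum libraries (horizontal) and 12 colon libraries (vertical), in CPM per kilobase on log axes, with the line of equal levels. Green points differ between the tissues at an adjusted p under 0.05 (27 genes); most genes lie near the line, ZNF664 at the top has 35.3 in the ileum and 58.5 in the colon, and ZNF536 lies farthest above it.

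Among the 18 members lower in the colon, the smallest p were those of ZNF839 (-0.50 ± 0.09, adjusted p = 4.72e-04) and ZNF263 (-0.54 ± 0.10, adjusted p = 5.16e-04). ZNF839 had a lowest, median and highest value of 20.3, 28.2 and 36.8 CPM in the ileum and 15.6, 19.1 and 24 in the colon, so the ranges overlapped between 20.3 and 24. ZNF322 (-0.53), ZNF827, a partner of the NuRD complex (-0.59), ZNF862 (-0.42), ZNF514 (-0.82), ZNF213 (-0.51) and ZNF672 (-0.55) followed. ZNF215 had the largest difference, -1.59 ± 0.43. It measured 0.716 to 10.7 CPM in the ileum and 0.171 to 2.93 in the colon, and its call and that of ZNF213 ended without the muscle-rich colon libraries, at -1.16 (adjusted p = 0.0896) and -0.44 (adjusted p = 0.0610). ZNF467, which steers the choice between fat and bone cell fate (-0.72), lost its call without the 3 ileum libraries high in FABP6, at -0.55 (adjusted p = 0.0889).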

How the data were processed

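The authors isolated poly(A) RNA with oligo(dT) beads and sequenced randomly primed libraries in paired-end mode, per the labels' protocols. The submitters' processing notes name fastp 0.22.0, HISAT2 2.1.0, HTSeq 0.9.1 and the build Sscrofa11.1, and strand settings are not given in the sources used here. The deposited table gives raw counts per gene and library. Its deposited FPKM values follow from counts and length to a relative difference of 2.10e-07 and entered no test. Gene length as deposited, in bases per the file headers, served for CPM per kilobase and for length classes. All 20674 genes matched RefSeq (Sscrofa11.1) by gene ID, and the 232 members had the same start and end there.

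In R 4.3.3 with edgeR 4.0.16, filterByExpr set aside genes with low counts and TMM scaled the libraries. Quasi-likelihood F-tests had a Benjamini-Hochberg adjustment over all genes tested and a threshold of 0.05. Each tissue had a model of 4 diet means. A model of 8 group means over all 24 libraries, taken as separate animals, served for the tissues. Log2 CPM used a prior count of 2, and the SE of a change is its size divided by the root of F. In a library 3 counts, the limit that a count of 0 allows, equal 0.151 to 0.251 CPM, for counting error only. DESeq2 1.42.0, RLE factors, no filter, a lowess removal of the length trend (span 0.3), a replicate block and left-out libraries were the alternatives. Leaving out the muscle-rich colon libraries was chosen after seeing the data.

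The members and lists were chosen with earlier results of these data known. Named genes were, per comparison, the 10 called members each way with the smallest p, or the 3 with the smallest p where fewer than 3 passed. The 8 highest per kilobase, those nearest the count limit, the longest and shortest, and up to 4 per list by p in the ileum were added. Other members are named where a count or role called for them, after their values were seen.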

Additional observations from a re-analysis of the deposited data

How the results depend on the processing

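The 10 ZNF genes with the smallest p for NCG in the ileum stayed past the threshold under all alternatives run, and none of the genes chosen by smallest p in a comparison changed direction in any; the other genes named were not followed through the alternatives. For NCG in the ileum the count of 44 was 44 with RLE factors (43 shared), 40 without the filter, 61 with DESeq2 (44 shared), 44 with the length trend removed and 27 without the libraries high in FABP6; leaving out 1 library at a time gave 30 to 42. LN against LF (34) gave 57 with DESeq2, 18 without the FABP6 libraries and 5 to 33 with 1 library left out. HN against HF (0) gave 17 with DESeq2. HN against LF (17) gave 39 with DESeq2, 0 without the FABP6 libraries and 0 to 29 with 1 library left out. In the colon DESeq2 called 6 members for NCG, 3 for LN against LF and 1 for HN against LF, where edgeR called 0, and leaving out 1 library gave 0 to 14 for NCG. Colon against ileum (27) gave 41 with DESeq2, 30 without the muscle-rich libraries and 20 to 37 with 1 library left out. The cause of these differences was not tested, and where libraries were left out fewer samples entered. Shares of all genes called are not given for these alternatives, so the counts are not read as particular to ZNF genes. The fibre effects, the interactions and the difference of the NCG effect between tissues gave 0 calls in every alternative.

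Replicate numbers gave no clear sign of pairing. Same-numbered ileum libraries had correlations of their deviations from -0.532 to 0.713 (8 of 18 over 0.1, and 15 of 36 with different numbers). In the colon they ran from -0.522 to 0.824 (7 of 18, and 11 of 36 with different numbers). Ileum with colon gave -0.367 to 0.307 (median 0.0516) with the same number and -0.346 to 0.362 (median -0.0663) with different numbers. These are deviations from means of 3 libraries, so they cannot tell whether libraries share a sow. With the replicate block, 35 members were called for NCG in the ileum (all 35 among the 44), 24 for LN against LF, 0 for HN against LF and 23 for colon against ileum, and no other count changed. Depth limits the sparse members: 3 were too low to test in the ileum, and the called members had a median of 162 counts per library.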
